A study of Homo sapiens with 3 samples.

Results

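The genes described here are 10 negative feedback genes of ERK signalling, read in wild-type NCI-H1975 cells, a human lung adenocarcinoma line that carries mutant EGFR. They were chosen by name for their known role, with earlier results of these data known: the MAP kinase phosphatase genes DUSP4, DUSP5, DUSP6 and DUSP7, the Sprouty genes SPRY1, SPRY2 and SPRY4, the Spred genes SPRED1 and SPRED2, and the ERBB receptor inhibitor gene ERRFI1. All 10 had a row among the 60880 gene rows of the deposited count table. The study concerned acquired resistance of this line to anlotinib, an inhibitor of several receptor tyrosine kinases, and TFAP2A knockdown in the resistant cells. Values were used from 1 RNA-seq library, replicate 2 of the wild-type cells, which the labels describe as grown in RPMI medium with fetal calf serum, with no drug named. Resistant cells, TFAP2A knockdown cells and ATAC-seq were not analysed here, so no cell states were compared, no replicate spread was available and no p-value was computed. Per the labels, RNA was extracted as total RNA and the library kit kept strand information. The labels do not say whether the cells came from 1 clone.

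ERK is the last kinase of the cascade that runs from a receptor such as EGFR through RAS, RAF and MEK. Active ERK raises transcription of genes whose products restrain the same cascade at several steps, and several of the genes above are widely used as readouts of ERK output in tumour cells. The dual-specificity phosphatases remove phosphate from ERK itself. Sprouty and Spred proteins act upstream, between the receptor and RAF, and ERRFI1 (also called MIG6) binds the kinase domain of EGFR and its relatives. Protein phosphorylation was not measured, so ERK activity itself is not part of these data.

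The library held 25012733 counts, and 1 count equalled 0.040 CPM (counts per 1000000 counts of the library). A gene was called detected at 10 or more counts, which 29.4% of all rows and 69.7% of 19056 protein-coding genes reached. Detected protein-coding genes had a median of 26.4 CPM, with quartiles at 8.16 and 66.1 CPM. Intervals are 95% Poisson or binomial intervals and cover counting error only, since there was 1 library. Sequenced reads can also be copies of the same molecule, which these intervals do not allow for. All 7 lung epithelial markers were detected, with 132533 counts for KRT7 and 2926 for NKX2-1. None of 4 fibroblast markers was detected, and DCN, LUM and PDGFRA were at 0. Of 4 endothelial markers CDH5 had 340 counts, VWF had 10, and CLDN5 and TIE1 were at 0. The leukocyte markers PTPRC, CD3E and TYROBP had 2, 1 and 1 counts.

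All 10 feedback genes were detected, beside 69.7% of protein-coding genes. Together they held 13953 counts, or 558 CPM (95% interval 549 to 567), which is 0.0558% of the library. They spanned a 38.4-fold range of read counts, with ERRFI1 at the top and SPRY1 at the bottom, and a median of 32.6 CPM. Of the 10 genes, 6 lay above the 26.4 CPM median of detected protein-coding genes. By definition of a median, 6636 of the 13279 detected protein-coding genes exceeded that level, a share near that of the feedback genes. Among all protein-coding genes, detected or not, 34.8% exceeded it. ERRFI1 and DUSP5 lay above the upper quartile, as did 25% of detected protein-coding genes.

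**Figure D1:**
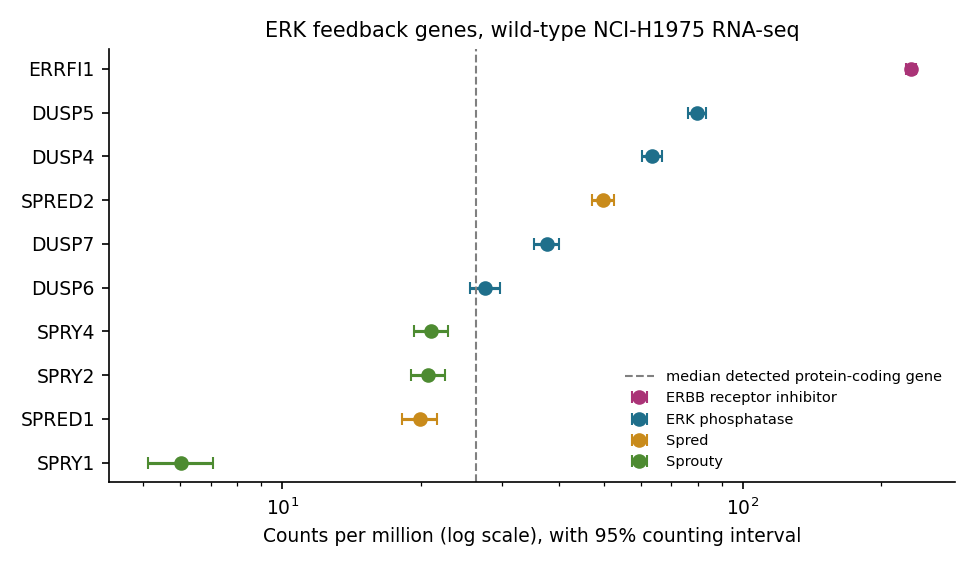
Level of each ERK feedback gene in wild-type NCI-H1975 RNA-seq replicate 2, in CPM on a log axis. Points are the single library's values, bars are 95% Poisson intervals, colours mark the role, and the dashed line is the median detected protein-coding gene at 26.4 CPM. ERRFI1 at 232 CPM stands apart from the other 9 genes, and SPRY4, SPRY2 and SPRED1 lie together near 20 CPM.

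CPM is not corrected for transcript length, and no transcript lengths of the authors' annotation were used here. The order of the genes is therefore an order of read numbers, not of molecules: a read ratio between a pair of genes is offset in full by a transcript length ratio of the same size. The order ran ERRFI1, DUSP5, DUSP4, SPRED2, DUSP7, DUSP6, SPRY4, SPRY2, SPRED1 and SPRY1. Of the 9 ratios between neighbours in that order, 7 had an interval above 1. The other 2 joined SPRY4, SPRY2 and SPRED1, whose read numbers did not differ beyond counting error. Among all 45 pairs, 42 differed beyond counting error in read number and the 3 that did not were the pairs of SPRY4, SPRY2 and SPRED1.

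The promoter windows of the genes at both ends of this order are shown so that the start regions behind the most and the fewest reads can be read, together with one of SPRED2. They are RefSeq sequences from GRCh38.p14, covering 250 bases before to 50 after an annotated start, whereas the count table rests on hg19. Capitals mark matches, on either strand, to the GC box GGGCGG, the AP-1 motif TGANTCA and the TATA box TATAAA. SPRED2 is not at an end of the order, and its window shown is the only feedback gene window with an AP-1 or TATA box match. SPRY1 and SPRED2 each have 2 windows, and counts per gene do not show which start gave the reads.
ERRFI1, chr1:8026260-8026559, minus strand: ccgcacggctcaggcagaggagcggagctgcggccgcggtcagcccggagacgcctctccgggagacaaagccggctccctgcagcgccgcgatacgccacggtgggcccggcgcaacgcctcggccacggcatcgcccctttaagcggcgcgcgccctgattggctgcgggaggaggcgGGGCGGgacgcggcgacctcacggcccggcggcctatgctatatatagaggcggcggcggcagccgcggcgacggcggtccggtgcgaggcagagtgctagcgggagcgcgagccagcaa
SPRY1 first window, chr4:123396545-123396844, plus strand: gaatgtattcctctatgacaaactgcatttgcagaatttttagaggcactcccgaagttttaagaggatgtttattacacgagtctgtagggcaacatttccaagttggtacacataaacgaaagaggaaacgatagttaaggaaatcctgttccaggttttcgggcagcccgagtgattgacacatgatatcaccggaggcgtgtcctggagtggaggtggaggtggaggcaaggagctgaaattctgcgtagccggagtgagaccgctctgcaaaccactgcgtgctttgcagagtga
SPRY1 second window, chr4:123398136-123398435, plus strand: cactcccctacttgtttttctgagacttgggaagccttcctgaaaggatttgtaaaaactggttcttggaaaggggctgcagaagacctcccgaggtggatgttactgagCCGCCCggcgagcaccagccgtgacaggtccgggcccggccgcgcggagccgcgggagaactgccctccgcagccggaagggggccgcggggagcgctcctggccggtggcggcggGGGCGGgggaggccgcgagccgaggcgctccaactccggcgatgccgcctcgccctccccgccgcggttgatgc
SPRED2 second window, chr2:65366729-65367028, minus strand: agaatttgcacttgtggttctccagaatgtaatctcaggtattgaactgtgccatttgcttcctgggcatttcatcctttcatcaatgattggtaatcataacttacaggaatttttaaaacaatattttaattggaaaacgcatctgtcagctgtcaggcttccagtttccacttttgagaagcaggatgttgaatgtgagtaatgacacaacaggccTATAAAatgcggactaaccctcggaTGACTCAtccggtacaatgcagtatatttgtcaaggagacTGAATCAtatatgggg

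The windows of the genes at both ends differed in base composition. The ERRFI1 window was 74.7% G and C, and the SPRY1 windows were 47.7% and 69.3%. The SPRED2 window shown was 39.3%, the lowest of the feedback genes, and the other SPRED2 window was 60%. Windows were found for 8 of the 10 genes, all but DUSP4 and DUSP5, and there were 12 in all. Their median was 64% G and C, against 58.7% over all 35116 RefSeq windows of the same length. A GC box, the motif bound by SP1-type factors, stood in 8 of the 12 windows, and in 45% of all windows. The AP-1 motif and the exact TATA box letters TATAAA each stood in 1 of the 12, the SPRED2 window shown. They stood in 7.71% and 11.5% of all windows. Only these exact letters were searched, so other TATA-like stretches, as in the ERRFI1 window, were not counted. In the SPRED2 window shown, the TATA box began 31 bases before the start and one AP-1 match began 6 bases before it. A second AP-1 match in the same SPRED2 window lay after the start. The ETS motif CCGGAAGT, the cyclic AMP response element TGACGTCA and the CArG box bound by serum response factor had no match in any of the 12, and stood in 4.14%, 1.85% and 1.29% of all windows. A match describes these letters alone and shows no binding, and motifs may overlap one another.

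At the receptor level, ERRFI1 had more reads than any of the other 9 genes. Its protein is an inhibitor that docks on the kinase domain of ERBB receptors and promotes their removal from the surface. It had 5803 counts (identifier ENSG00000116285.12_2), or 232 CPM (226 to 238), above 94.7% of detected protein-coding genes. That was 2.91 times (2.77 to 3.07) the counts of DUSP5, the next in order, and 41.6% (40.8 to 42.4) of the reads of all 10 genes. EGFR, the receptor that ERRFI1 restrains, had 8328 counts, or 333 CPM. Without ERRFI1 the remaining 9 genes spanned a 13.2-fold range of read counts with a median of 27.6 CPM.

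**Figure D2:**
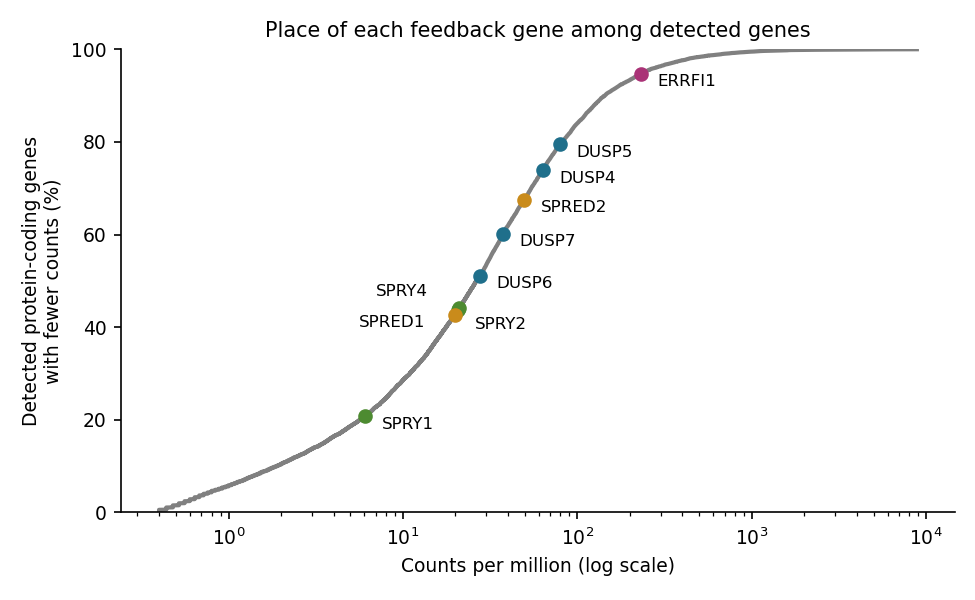
Percentage of detected protein-coding genes with fewer counts (vertical axis) against CPM on a log axis, for all detected protein-coding genes (grey line) and for the 10 feedback genes (points, coloured by role: purple ERRFI1, blue phosphatases, ochre Spred, green Sprouty). The genes spread from 20.7% at SPRY1 to 94.7% at ERRFI1.

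At the level of ERK itself, the 4 phosphatase genes together held 5212 counts, or 37.4% (36.6 to 38.2) of the reads of the 10 genes. DUSP5, a nuclear phosphatase selective for ERK, led them with 1993 counts (ENSG00000138166.5_2), or 79.7 CPM (76.2 to 83.3). DUSP4, a nuclear phosphatase that also acts on other MAP kinases, had 1590 counts (ENSG00000120875.8_2), or 63.6 CPM (60.5 to 66.8). The cytoplasmic ERK-selective phosphatases had fewer reads. DUSP7 had 938 counts (ENSG00000164086.9_3), or 37.5 CPM (35.1 to 40.0). DUSP6, a gene much used as a readout of ERK output, had 691 counts (ENSG00000139318.7_2), or 27.6 CPM (25.6 to 29.8), and its interval held the median of detected protein-coding genes. DUSP5 and DUSP4 lay above 79.5% and 73.9% of detected protein-coding genes, and DUSP7 and DUSP6 above 60.1% and 51.1%.

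The 6 pairs within this group all differed in read number beyond counting error. DUSP5 had 1.25 times (1.17 to 1.34) the counts of DUSP4, 2.12 times (1.97 to 2.30) those of DUSP7 and 2.88 times (2.64 to 3.15) those of DUSP6. DUSP4 had 1.70 times (1.56 to 1.84) the counts of DUSP7 and 2.30 times (2.10 to 2.52) those of DUSP6. DUSP7 had 1.36 times (1.23 to 1.50) the counts of DUSP6. The nuclear pair DUSP4 and DUSP5 held 3583 counts against 1629 for the cytoplasmic pair DUSP6 and DUSP7, a read ratio of 2.20 (2.07 to 2.33). The smallest of the read ratios in this group, DUSP5 over DUSP4, would be offset by a DUSP5 transcript 1.25 times as long.

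Reads of annotated neighbours and copies bear on a few of these values. The DUSP5 pseudogene DUSP5P1 had 148 counts, equal to 7.43% of the DUSP5 counts, and how the authors' counting split reads that both sequences share is not stated in the labels. With all of them added, DUSP5 would stand at 85.6 CPM, in the same place in the order. The divergent transcript DUSP5-DT had 19 counts. SPRY4-AS1, annotated antisense to SPRY4, had 28 counts, equal to 5.31% of the SPRY4 counts, and ERRFI1-DT had 30, equal to 0.517% of the ERRFI1 counts. The strand setting of the counting is not given, so the split between SPRY4 and SPRY4-AS1 is uncertain.

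The other MAP kinase phosphatases put the 4 genes in context. Across the 10 catalytically active MAP kinase phosphatases, 8664 counts were found, and DUSP4 to DUSP7 took 60.2% (59.1 to 61.2) of them. DUSP5 alone took 23.0% (22.1 to 23.9) and DUSP4 took 18.4% (17.5 to 19.2), whereas DUSP7 took 10.8% (10.2 to 11.5) and DUSP6 took 7.98% (7.41 to 8.57). By class, the nuclear inducible enzymes DUSP1, DUSP2, DUSP4 and DUSP5 took 53.2% of the reads, the cytoplasmic ERK-selective DUSP6, DUSP7 and DUSP9 took 26.1%, and DUSP8, DUSP10 and DUSP16, which prefer JNK and p38, took 20.7%. All 6 genes of the family outside the feedback group were detected, beside 69.7% of protein-coding genes, and had a median of 24.4 CPM. DUSP1, DUSP9 and DUSP10 had the most reads, with 922, 632 and 613 counts, and DUSP8 and DUSP2 the fewest, with 568 and 108 counts.

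**Figure D3:**
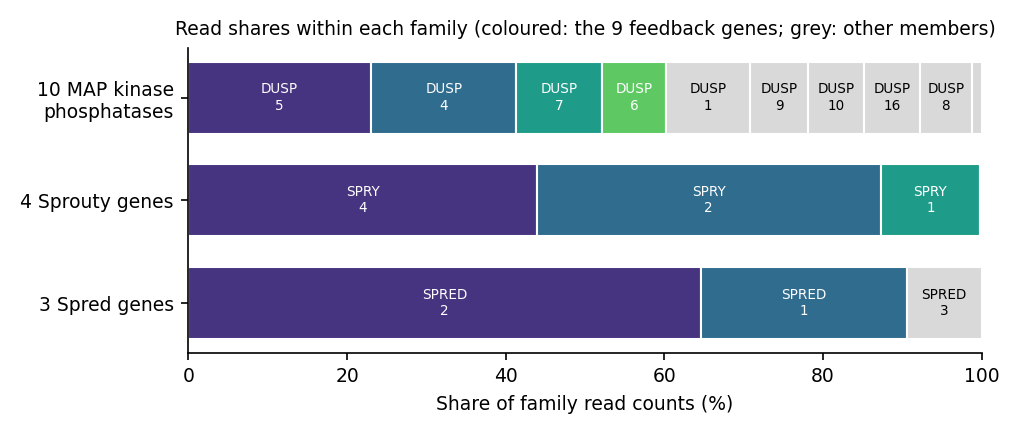
Share of each family's read counts (percent, stacked bars) taken by each gene, for 10 MAP kinase phosphatase genes, 4 Sprouty genes and 3 Spred genes. Coloured segments are the feedback genes described here and grey segments the other family members. Narrow unlabelled segments are DUSP2 at 1.25% and SPRY3 at 0.167%.

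Between receptor and RAF, the Sprouty genes had the fewest reads of the 4 roles in total, 1197 counts, or 8.58% (8.12 to 9.06) of the reads of the 10 genes. SPRY4, which restrains growth factor signalling to RAS and RAF, had 527 counts (ENSG00000187678.9_4), or 21.1 CPM (19.3 to 22.9). SPRY2, whose protein also binds the ubiquitin ligase CBL, had 519 counts (ENSG00000136158.11_3), or 20.7 CPM (19.0 to 22.6). Their read ratio was 1.02 (0.898 to 1.15), so they could not be told apart at this depth. SPRY1, a relative known from kidney development, had 151 counts (ENSG00000164056.10_2), or 6.04 CPM (5.11 to 7.08), above 20.7% of detected protein-coding genes. SPRY4 had 3.49 times (2.91 to 4.21) and SPRY2 3.44 times (2.86 to 4.15) the counts of SPRY1. All 3 lay below the median of detected protein-coding genes.

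The remaining Sprouty gene, SPRY3, had 2 counts, under the minimum, and took 0.167% (0.0202 to 0.601) of the reads of the 4 Sprouty genes. SPRY4 and SPRY2 took 44.0% (41.1 to 46.8) and 43.3% (40.5 to 46.1), and SPRY1 took 12.6% (10.8 to 14.6). CBL had 1473 counts, or 58.9 CPM.

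The Spred genes were unequal in read number. Their proteins bring the RAS-inactivating protein neurofibromin, the product of NF1, to the membrane. SPRED2 had 1243 counts (ENSG00000198369.9_4), or 49.7 CPM (47.0 to 52.5), above 67.5% of detected protein-coding genes. SPRED1, the gene mutated in Legius syndrome, had 498 counts (ENSG00000166068.12_3), or 19.9 CPM (18.2 to 21.7), above 42.6% of them. The read ratio of SPRED2 to SPRED1 was 2.50 (2.25 to 2.77). Across the 3 Spred genes SPRED2 took 64.6% (62.5 to 66.8), SPRED1 took 25.9% (24.0 to 27.9) and SPRED3, which had 182 counts, took 9.46% (8.19 to 10.9). NF1 had 2963 counts, or 118 CPM.

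The feedback genes were also read beside the rest of the pathway, by read number and without correction for length. The 10 feedback genes had a median of 32.6 CPM, against 126 CPM for 13 other ERK-responsive genes, 101 CPM for 9 receptors and adaptors, 62.7 CPM for 10 genes from RAS to ERK, 45.6 CPM for 10 other brakes and partners and 36.9 CPM for 8 genes of the JNK, p38 and ERK5 kinases. Every gene of these 5 lists was detected at the minimum of 10 counts, beside 69.7% of all protein-coding genes. MAPK10 only just reached it, with 13 counts. Above the median of detected protein-coding genes lay 6 of the 10 feedback genes and 10 of the 13 ERK-responsive genes. The same held for 7 of the 9 receptors and adaptors and 9 of the 10 genes from RAS to ERK. It also held for 8 of the 10 other brakes and partners and 5 of the 8 other kinases. That level was exceeded by 6636 of 13279 detected protein-coding genes, and by 34.8% of all protein-coding genes. The median feedback gene stood above the 26.4 CPM of the median detected protein-coding gene and below the median of each of these 5 lists. It stood above the medians of the 6 other MAP kinase phosphatases, 24.4 CPM, and of the 2 other Sprouty and Spred genes, 3.68 CPM. No test was made of these differences.

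**Figure D4:**
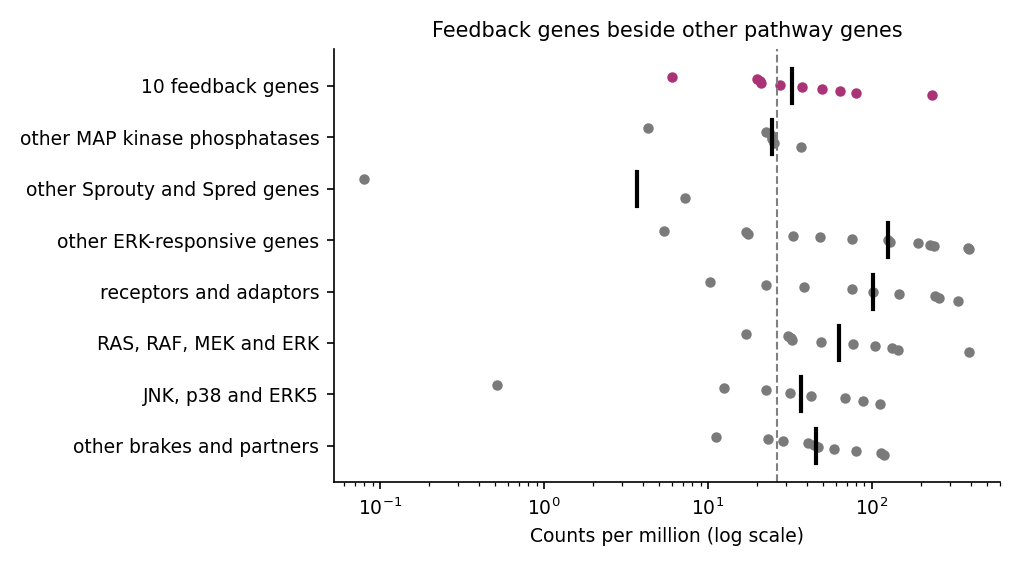
CPM (log axis) of each gene in the 10 feedback genes (purple) and in 7 lists of other pathway genes (grey), with a black bar at each list's median and a dashed line at the median detected protein-coding gene, 26.4 CPM. The feedback genes have a median of 32.6 CPM, and the ERK-responsive genes one of 126 CPM.

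Among other ERK-responsive genes the immediate early gene IER2 had 9781 counts, the transcription factor MYC had 9634 and the receptor kinase EPHA2 had 5947, and the AP-1 subunit FOS and the receptor kinase EPHA4 were lowest, with 425 and 135 counts. Among receptors and adaptors EGFR, ERBB2 and the adaptor SHC1 led with 8328, 6380 and 6074 counts, and SOS2 and GAB1 had 567 and 258. From RAS to ERK, the MEK gene MAP2K2 led with 9837 counts, ARAF had 3310 and NRAS had 766. MAPK3, an ERK gene whose product is a substrate of the phosphatases, had 1913 counts, or 76.5 CPM, beside 79.7 CPM for DUSP5. Among other brakes and partners NF1, the kinase inhibitor PEBP1 and the RAS GTPase activator RASA1 led with 2963, 2822 and 2003 counts, and CBLB and RASA2 had 584 and 278. Among the other MAP kinases MAPK13, MAPK12 and MAPK14, all of the p38 group, led with 2800, 2195 and 1713 counts, and MAPK11 and MAPK10 had 314 and 13.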

How the data were processed

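RNA-seq of wild-type NCI-H1975 cells was used from 1 library. The deposited values are raw read counts per Ensembl gene, which the authors did not normalise. Per the submitters' processing notes, reads were processed on hg19 and the tools included featureCounts and STAR, whose versions, annotation, strand setting and handling of shared reads are not given there.

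Identifiers were matched without version to current symbols (56414 of 60880 rows, 99.8% of counts); gene types came from RefSeq (GRCh38.p14). CPM used the total of all rows. Intervals are exact at 95%: Garwood for levels, Clopper-Pearson for shares, conditional for ratios. They were tested on simulated Poisson counts. Members and lists were chosen with earlier results of these data known, and promoter motifs and the DUSP5P1 alternative after seeing the data. All 10 members were named, with the 3 highest and 2 lowest genes of each other pathway list and known partners; a few genes that this rule would name are left out of the text. Detection minimum, total, reference genes and thinning were varied. Computations ran in SciPy 1.17.1 and pandas 2.3.3 under Python 3.11.15, with plots from Matplotlib 3.10.9.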

Additional observations from a re-analysis of the deposited data

How the results depend on the processing

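All 10 feedback genes stayed detected at minimums of 1 count, 50 counts and 1 CPM and after random thinning of the counts to 50%. After thinning, SPRY4 and SPRY2 changed places in the order with 257 and 260 counts, and the 10 ratios within families stayed inside their intervals. The summed level of 558 CPM became 590 CPM with a total without mitochondrial genes, 600.3 CPM without the 10 genes with the highest counts and 607 CPM with protein-coding genes alone, since the total shrinks. The median feedback gene lay above 55.9% of detected protein-coding genes and above 77.6% of genes with at least 1 count. Detected members of other lists became 2 for other Sprouty and Spred genes, 1 for fibroblast markers and 4 for leukocyte markers at 1 count, 0 for leukocyte markers at 50 counts, and 1 for endothelial markers at 50 counts, at 1 CPM and after thinning. The JNK, p38 and ERK5 genes detected became 7 of 8 at 50 counts, at 1 CPM and after thinning, as MAPK10 dropped below the minimum. Values per kilobase were not run, because no transcript or coding lengths were used here. With 1 library, the spread between cultures is unknown, so any order given may differ in another culture. No paired analysis was possible because values came from a single library.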
